A study of Mus musculus with 9 samples.

Results

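The AP-1 family was followed gene by gene in thymic invariant natural killer T (iNKT) cells that lack Med23, a subunit of the Mediator complex that links transcription factors to RNA polymerase II. The members were the 7 rows, among the 21883 genes of the expression table, whose symbol is *Jun*, *Junb*, *Jund*, *Fos*, *Fosb*, *Fosl2* or *Batf*. The study itself had put AP-1 pathway genes on display for its WT samples, so their direction between WT stages is not independent evidence. RNA was sequenced from 9 libraries, 3 for each of 3 groups. WT stage 2 and WT stage 3 cells came from C57BL/6 mice of 6 weeks, and *Med23*-deficient stage 2 cells came from C57BL/6 mice whose floxed *Med23* alleles (*Med23* fl/fl) are deleted by a *Cd4*-Cre transgene by the CD4+CD8+ (double-positive) stage of thymocyte development. The labels give no age for the deficient mice, and the methods give only a range for the mice of the study. No *Med23*-deficient stage 3 library was analysed here. Cells were sorted from the thymus with a CD1d-PBS57 tetramer as CD24 low and CD44 high, and the NK cell receptor NK1.1 parted stage 2 (low) from stage 3 (high), so its gene *Klrb1c* is no finding between the stages. Nothing in the labels says which libraries came from separate mice, so the p-values measure the spread between these libraries.

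AP-1 is a family of basic leucine zipper (bZIP) transcription factors that bind DNA as dimers. Jun proteins can pair with each other or with Fos proteins, whereas Fos proteins need a Jun partner. *Fos*, *Fosb*, *Jun* and *Junb* are immediate-early genes, which T cells transcribe within minutes of antigen receptor or growth factor signals through MAP kinases, and *Jund* is transcribed more constantly. Batf also pairs with Jun proteins and, together with Irf4 or Irf8, binds composite sites in lymphocytes.

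The start regions of 4 members are shown here because they hold motifs that were searched. RefSeq promoter windows (GRCm38.p6) matched all 7 members, and the 250 bases before the start were searched on both strands for the AP-1 site TGANTCA and its variant TGACATCA, for TGACGT, which is the core of the CRE, for CCAAT as in the CCAAT box, for TATAAA as in the TATA box, and for the CArG box. Each line gives 100 bases, 5′ to 3′ on the strand of the gene, with motif matches in capitals. The lines end 1 base before the RefSeq start, from which distances are counted, except that of *Batf*, which ends 52 bases before it, next to the gene start of the table.
*Jun*, chr4:95052223-95052322, minus strand: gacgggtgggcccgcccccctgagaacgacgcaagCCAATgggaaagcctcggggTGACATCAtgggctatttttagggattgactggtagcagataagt
*Junb*, chr8:84978749-84978848, minus strand: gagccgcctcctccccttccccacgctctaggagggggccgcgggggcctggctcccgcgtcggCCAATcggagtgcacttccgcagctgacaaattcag
*Fos*, chr12:85473790-85473889, plus strand: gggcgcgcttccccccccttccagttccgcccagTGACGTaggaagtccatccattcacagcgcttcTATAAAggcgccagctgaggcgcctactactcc
*Batf*, chr12:85686569-85686668, plus strand: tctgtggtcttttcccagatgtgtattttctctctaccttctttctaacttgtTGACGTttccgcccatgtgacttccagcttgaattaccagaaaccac
The *Jun* variant AP-1 site began 45 bases before the start, and 2.93% of the 32851 promoter windows hold these letters. The CRE core, found in 6.47% of windows, began 66 bases before the start of *Fos* and 98 bases before that of *Batf*. CCAAT was present in *Jun* and *Junb* and in 33.8% of windows, and TATAAA in *Fos* and in 12.4% of windows. TGANTCA (6.75% of windows) and the CArG box (1.47%) were in none of the 7 windows, and bases further upstream than 250 were not searched. *Fosb* and *Fosl2* held none of these motifs. The RefSeq start lies 1210 bases upstream of the gene start in the table for *Jund* and 671 bases downstream of it for *Fosl2*, so the windows of both do not adjoin that gene start.

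The deletion was read first from *Med23* itself. It measured 4.80, 3.60 and 3.92 FPKM (fragments scaled for transcript length and for the mapped reads of the library) in the *Med23*-deficient libraries against 5.51, 5.15 and 6.74 FPKM in WT stage 2, without overlap but short of the test (log2 difference -0.41, limma adjusted p = 0.552). WT stage 3 measured 7.14, 4.44 and 6.12 FPKM and overlapped the deficient libraries (log2 difference of the deficient cells -0.42, limma adjusted p = 0.593). The table gives 1 value per gene and does not separate the deleted exons. Between 15584 and 17333 genes were above an FPKM of 0 in a library, and the short gene model *Gm23935* took 62.2% to 71.9% of the summed FPKM. The 9 iNKT cell markers summed to between 1040 and 1281 FPKM. The 6 double-positive thymocyte markers summed to at most 4.99 FPKM, with *Rag2* and *Ptcra* below 1 FPKM throughout, and the B cell genes *Cd79a* and *Cd79b* were also below 1 FPKM in all libraries. The 4 myeloid markers summed to 0.63 to 2.32 FPKM in the deficient cells, 0.49 to 1.05 FPKM in WT stage 2 and 0.10 to 2.33 FPKM in WT stage 3, with *Csf1r* and *Itgam* below 1 FPKM in all libraries and *Cd68* at up to 1.05 FPKM in the deficient cells and 1.46 FPKM in WT stage 3. *Lyz2*, the lysozyme of macrophages, measured 0, 1.18 and 1.24 FPKM in the deficient cells against 0, 0 and 0 FPKM in WT stage 2. *Klrb1c* measured 4.60, 2.61 and 3.04 FPKM in *Med23*-deficient stage 2 cells, below the 16.3, 26.2 and 7.65 FPKM of WT stage 2 (limma adjusted p = 0.210). The 5 heat shock genes of the stress list summed to 204 to 257 FPKM in the deficient cells, 280 to 364 FPKM in WT stage 2 and 299 to 357 FPKM in WT stage 3, most of it *Hspa8*. The part of any of these in the AP-1 values was not tested, and in bulk RNA fewer cells of a type and less RNA per cell cannot be told apart.

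In the main comparison, *Med23*-deficient against WT stage 2, no AP-1 gene passed the test. On the log2(FPKM + 1) scale 6 of the 7 members were higher in the deficient cells and 1 was lower, with a median difference of 0.20 against -0.01 over all 20674 genes tested. Over genes whose mean FPKM reached 1 the median was -0.05. The share of all genes with each sign was not counted, here or in the other comparisons. *Junb*, *Fos*, *Fosb* and *Batf* changed sign under some alternatives. None of the 7 had an adjusted p of at most 0.05, a level that 0.213% of all genes reached, and none passed a fold of at least 2 with an unadjusted p of at most 0.05, as 2.11% of all genes did. An unadjusted p of at most 0.05 was reached by *Jund* and *Fosl2*, against 9.58% of all genes. The same 2 members were higher in the deficient cells without overlap, against 5.63% of all genes. For a single value, permuting 3 libraries against 3 reaches at best an exact p of 0.10.

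**Figure D1:**
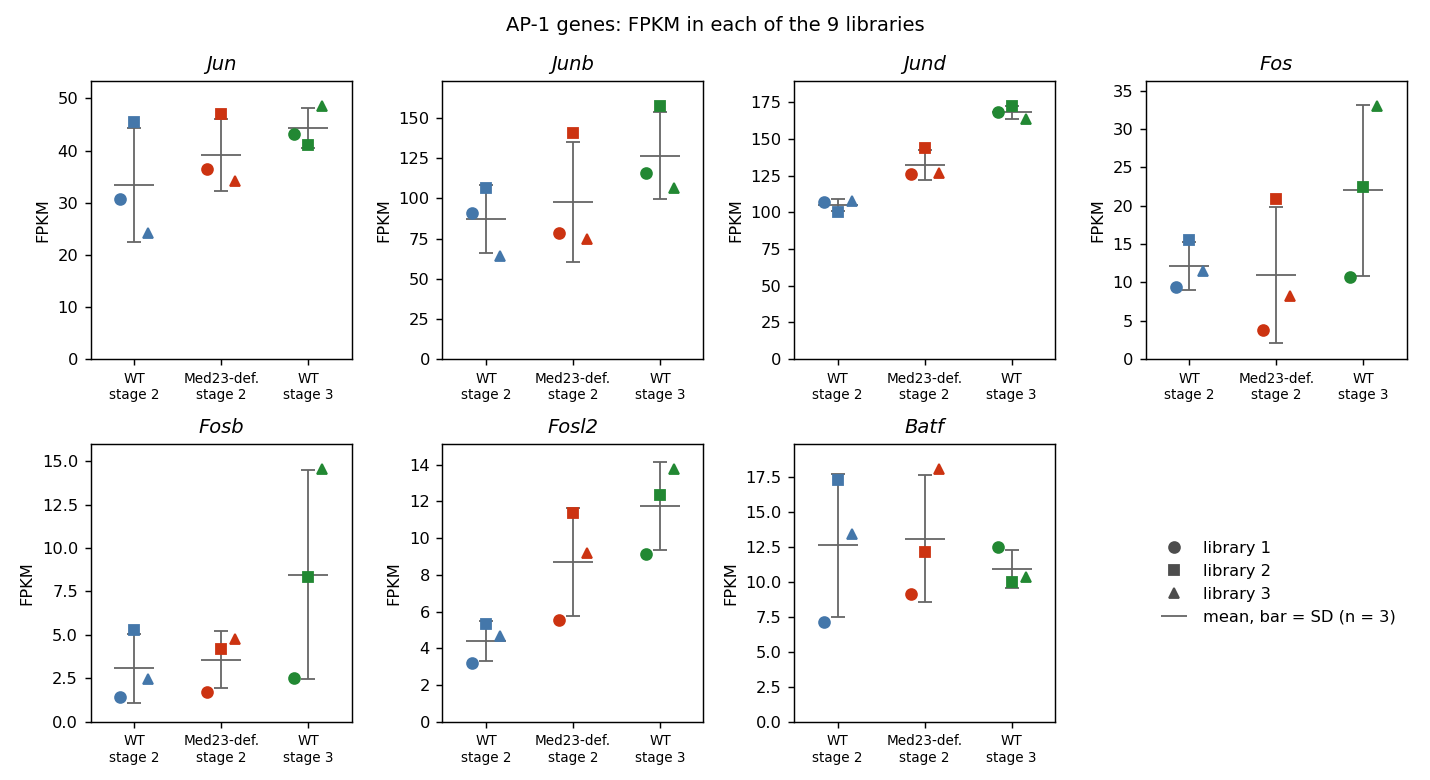
FPKM of each AP-1 gene (vertical axes, linear from 0, a scale of its own for each gene) in the 3 libraries of WT stage 2, *Med23*-deficient stage 2 and WT stage 3, with the mean and SD of each group (n = 3). *Jund* forms 3 separate tight groups with the *Med23*-deficient libraries in the middle, whereas *Fos* in the *Med23*-deficient libraries runs from 3.81 to 20.9 FPKM.

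*Jund* (ENSMUSG00000071076, chr8:70698949-70700616, plus strand, mm10) had the highest mean FPKM of the 7 genes in each group and was the steadiest. In *Med23*-deficient stage 2 it measured 126, 144 and 127 FPKM, in WT stage 2 it measured 107, 101 and 108 FPKM, and in WT stage 3 it measured 168, 172 and 164 FPKM. All 3 deficient libraries were above all WT stage 2 libraries and below all WT stage 3 libraries. The log2 difference from WT stage 2 was 0.33 (95% interval 0.12 to 0.53, limma adjusted p = 0.266), and from WT stage 3 it was -0.35 (95% interval -0.55 to -0.14, limma adjusted p = 0.174). Neither step passed the adjusted threshold, while the whole span between the WT stages did (0.67, limma adjusted p = 0.0201). That call was lost when any 1 of the 6 libraries was left out, with adjusted p-values between 0.0619 and 0.0889, and on the TPM scale (0.0602). The order WT stage 2, *Med23*-deficient stage 2, WT stage 3 without any overlap was found for 68 of 21795 genes, 0.312%. The iNKT cell markers had no common order. *Klrb1c* had its lowest values in the deficient cells, and the deficient mean of *Cd3e* was also the lowest. For *Cd44* the means of WT stage 2, *Med23*-deficient stage 2 and WT stage 3 were 38.3, 43.4 and 48.4 FPKM. They were 121, 129 and 311 FPKM for *Il2rb* and 101, 78.1 and 27.5 FPKM for *Zbtb16*. The deficient mean was the highest for *Cd3d*, *Cd3g*, *Trbc1* and *Trbc2*.

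*Junb* (ENSMUSG00000052837, chr8:84974484-84978718, minus strand), an immediate-early Jun gene, was of similar abundance but varied more. It measured 78.4, 141 and 74.5 FPKM in *Med23*-deficient stage 2, 90.7, 106 and 64.2 FPKM in WT stage 2 and 116, 157 and 107 FPKM in WT stage 3. A single deficient library stood above all WT stage 2 libraries, and the other two lay among them. The log2 difference between the stage 2 groups was 0.13 (95% interval -0.59 to 0.86, limma adjusted p = 0.894), and it was -0.16 without the second deficient library.

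*Jun* (ENSMUSG00000052684, chr4:95049034-95052222, minus strand), which encodes c-Jun, measured 36.4, 47.0 and 34.1 FPKM in *Med23*-deficient stage 2 and 30.6, 45.5 and 24.2 FPKM in WT stage 2. Its WT stage 3 values were 43.3, 41.1 and 48.5 FPKM. The stage 2 groups overlapped, with a log2 difference of 0.26 (95% interval -0.34 to 0.85, limma adjusted p = 0.737). Against WT stage 3 the deficient cells also overlapped (-0.18, 95% interval -0.53 to 0.16, limma adjusted p = 0.750). The study itself, measuring thymic cells against *Gapdh*, reported less c-Jun transcript in *Med23*-deficient stage 2 than in WT stage 2 and stage 3. It also reported that forced c-Jun expression partly restored the step to stage 3. The mean difference from WT stage 2 had the opposite sign here, and that from WT stage 3 had the same sign. A fall of *Jun* of up to 0.34 on the log2 scale lies inside the interval between the stage 2 groups, so these libraries do not exclude it. That end of the interval is not a limit of detection.

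*Fos* (ENSMUSG00000021250, chr12:85473890-85477273, plus strand), which encodes c-Fos, was the only member with a lower mean log2 value in the deficient than in the WT stage 2 cells. It measured 3.81, 20.9 and 8.24 FPKM in *Med23*-deficient stage 2, 9.39, 15.6 and 11.5 FPKM in WT stage 2, and 10.7, 22.5 and 33.0 FPKM in WT stage 3. The lowest and the highest of the 6 stage 2 values were both deficient libraries, 5.49-fold apart. The log2 difference was -0.38 (95% interval -1.71 to 0.95, limma adjusted p = 0.820) and turned to 0.14 without the first deficient library. Against WT stage 3 it was -1.09 (95% interval -2.65 to 0.48, limma adjusted p = 0.686).

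*Fosb* (ENSMUSG00000003545, chr7:19302696-19310051, minus strand) was the least abundant member, at 1.71, 4.21 and 4.79 FPKM in *Med23*-deficient stage 2 and 1.45, 5.28 and 2.47 FPKM in WT stage 2. In WT stage 3 it measured 2.52, 8.31 and 14.6 FPKM. All 3 groups overlapped. The deficient cells differed from WT stage 2 by 0.20 (95% interval -0.92 to 1.33, limma adjusted p = 0.895) and from WT stage 3 by -0.88 (95% interval -2.34 to 0.58, limma adjusted p = 0.742), and the first of these was -0.11 without the first WT stage 2 library.

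*Fosl2* (ENSMUSG00000029135, chr5:32135801-32157842, plus strand), which encodes Fra-2, showed the largest difference of the 7 between the stage 2 groups. It measured 5.54, 11.4 and 9.19 FPKM in *Med23*-deficient stage 2 against 3.22, 5.31 and 4.67 FPKM in WT stage 2, and 9.12, 12.4 and 13.8 FPKM in WT stage 3. All deficient libraries were above all WT stage 2 libraries, the nearest pair being 5.54 and 5.31 FPKM, and they overlapped WT stage 3. The log2 difference from WT stage 2 was 0.82 (95% interval 0.11 to 1.53, limma adjusted p = 0.437). It passed the fold and p thresholds without the first deficient library (1.08, limma adjusted p = 0.293). From WT stage 3 the difference was -0.43 (95% interval -1.10 to 0.25, limma adjusted p = 0.724), and between the WT stages *Fosl2* was the 1 member past the fold and p thresholds (1.24, limma adjusted p = 0.0646). The study had itself reported *Fosl2* as raised from WT stage 2 to stage 3 at those fold and p levels, so this is no independent result.

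*Batf* (ENSMUSG00000034266, chr12:85686669-85709087, plus strand), 209395 bases from *Fos* on chromosome 12, stood apart from the Jun and Fos genes. It measured 9.10, 12.1 and 18.1 FPKM in *Med23*-deficient stage 2, 7.13, 17.3 and 13.4 FPKM in WT stage 2, and 12.5, 10.0 and 10.3 FPKM in WT stage 3. The 3 groups overlapped, and the stage 2 groups differed by 0.08 (95% interval -0.81 to 0.97, limma adjusted p = 0.948), a difference of -0.045 on the TPM scale. Over the 9 libraries its Pearson r with the other members lay between -0.18 and 0.24, whereas the pairs among the other 6 genes lay between 0.44 and 0.86. These libraries share their stage and genotype groups, so the values of r only describe them.

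**Figure D2:**
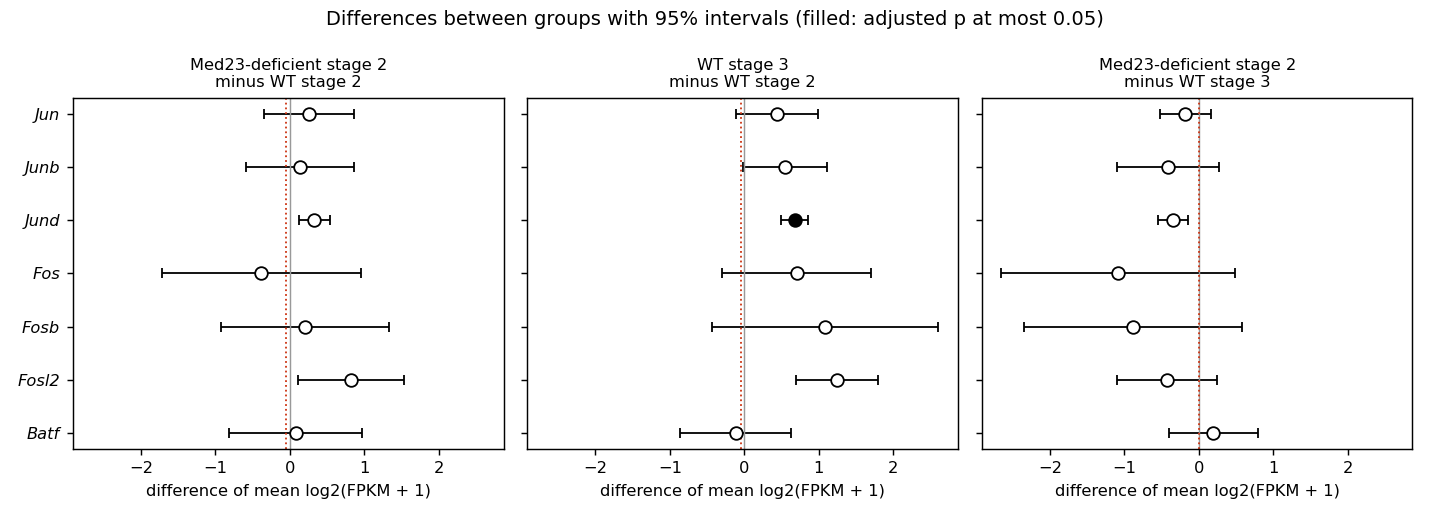
Differences of mean log2(FPKM + 1) for the 7 genes in the 3 comparisons, with 95% intervals from limma, a filled point where the adjusted p was at most 0.05 and a dotted line at the median over genes whose mean FPKM reached 1. The intervals of *Jund* are the narrowest, and only its difference between the WT stages is filled.

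The other comparisons share libraries with the first, so their values stand side by side and were not correlated. Against WT stage 3, 6 members were lower and 1 was higher in the deficient cells, with a median difference of -0.41 against 0.00 over all genes tested. None had an adjusted p of at most 0.05, as 1.33% of all genes had, and none passed the fold and p thresholds, as 2.86% did. *Jund* alone had an unadjusted p of at most 0.05, against 10.2% of all genes, and it alone was lower without overlap, against 6.75% of all genes. Without the second deficient library *Fos* passed the fold and p thresholds, and without the first WT stage 3 library *Fosb* did. Between the WT stages, 1 of 7 members passed the adjusted p (1.67% of all genes) and 1 the fold and p thresholds (3.60%). An unadjusted p of at most 0.05 was reached by 2 (13.2%), and *Junb*, *Jund* and *Fosl2* were higher in stage 3 without overlap (7.36%). Without the first WT stage 3 library the fold and p count was 3, with *Fos* and *Fosb* beside *Fosl2*.

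Because FPKM is scaled by transcript length, the levels of the 7 genes can be added up. *Jun*, *Junb* and *Jund* made up 85.4% to 92.3% of the summed AP-1 FPKM in *Med23*-deficient stage 2, 85.3% to 91.5% in WT stage 2 and 81.7% to 90.4% in WT stage 3. The sum of the 7 was 306 ± 64.9 FPKM (SD, n = 3) in the deficient cells, 258 ± 34.5 FPKM (SD, n = 3) in WT stage 2 and 392 ± 30.7 FPKM (SD, n = 3) in WT stage 3. The deficient sum overlapped both WT groups (exact permutation p = 0.40 against WT stage 2 and 0.20 against WT stage 3).

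The shares of the Fos genes in their own sum were a measure chosen after its values were seen. *Fos* was 34.4%, 57.3% and 37.1% of the summed *Fos*, *Fosb* and *Fosl2* FPKM in the *Med23*-deficient libraries, and 66.8%, 59.5% and 61.7% in WT stage 2. Every deficient library was lower than every WT stage 2 library (difference of means -19.7 percentage points, exact permutation p = 0.10, the smallest that 3 against 3 can give). The share of *Fosl2* was 50.1%, 31.1% and 41.4% against 22.9%, 20.3% and 25.0%, higher in every deficient library (exact permutation p = 0.10). In WT stage 3 *Fos* was 47.8%, 52.1% and 53.8% of the sum, also below every WT stage 2 library (difference of means -11.4 percentage points, exact permutation p = 0.10) and overlapping the deficient cells. In WT stage 3 the *Fosl2* share ran from 22.5% to 40.9% and overlapped both. The summed FPKM of the Fos genes was 23.3 ± 12.7 (SD, n = 3) in the deficient cells and 19.6 ± 6.10 (SD, n = 3) in WT stage 2, overlapping, and the 3 Jun genes had overlapping shares of their own sum in all groups.

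**Figure D3:**
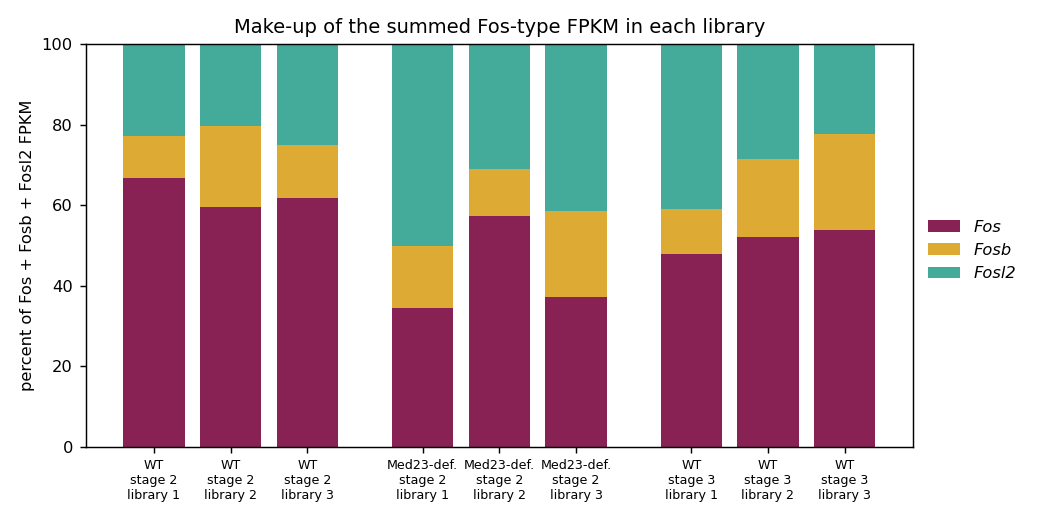
Percent of the summed *Fos*, *Fosb* and *Fosl2* FPKM (vertical axis) taken by each gene in each of the 9 libraries, 1 stacked bar per library. The *Fosl2* part is 31.1% or more in the *Med23*-deficient libraries and 25.0% or less in the WT stage 2 libraries.

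The members differed strongly in how far libraries of 1 group spread. The pooled SD of log2(FPKM + 1) within groups was 0.07 for *Jund*, and 2.61% of the 345 genes within 2-fold of its mean level had a smaller one. It was 0.80 for *Fos* and 0.82 for *Fosb*, larger than for 96.8% and 94.0% of genes of similar level. In all 3 groups the library numbered 1 had the lowest value of *Fos*, *Fosb* and *Fosl2*. It also had the lowest value of 4 of the 14 other immediate-early genes (*Dusp1*, *Dusp2*, *Btg2* and *Klf6*) and of 6.38% of genes whose mean FPKM reached 1. *Egr1* was instead lowest in the library numbered 3 in all 3 groups. *Dusp1*, a phosphatase that switches off MAP kinases, measured 26.5, 59.5 and 52.8 FPKM in the deficient libraries and 19.6, 62.0 and 44.1 FPKM in WT stage 2. In both stage 2 groups *Jun*, *Junb*, *Fos* and *Fosl2* were highest in the library numbered 2, and so were the heat shock genes *Hspa1a* and *Hspa1b*. In WT stage 3 *Junb*, *Hspa1a* and *Hspa1b* were again highest in library 2. *Jun* was instead lowest in that library, and *Fos* and *Fosl2* were highest in library 3. *Hspa1b* measured 8.85, 15.5 and 1.74 FPKM in the deficient cells and 1.83, 11.8 and 1.67 FPKM in WT stage 2. The other stress genes did not follow in both stage 2 groups. *Hsph1* was highest in library 3 of both. *Dnajb1* was highest in library 2 of WT stage 2 but in library 1 of the deficient cells. *Hspa8* was highest in library 2 of the deficient cells but in library 3 of WT stage 2. The share of all genes highest in library 2 of both stage 2 groups was not counted. The part of cell handling in these spreads was not tested.

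The genes around AP-1 were described from lists of its kinases, upstream factors, partners, turnover factors, immediate-early genes and regulated genes. In *Med23*-deficient against WT stage 2, none of the 15 MAP kinase cascade genes, 9 upstream factors, 7 partner factors, 7 Jun turnover factors and 12 other bZIP genes tested passed either threshold. Their median log2 differences lay between -0.26 (partners) and 0.04 (other bZIP genes), against -0.01 over all genes tested. The lowest unadjusted p of the kinase, upstream, partner and turnover lists belonged to *Mapk10*, a JNK kinase listed at 0 in all deficient libraries and at 0.33, 0.41 and 0.31 FPKM in WT stage 2 (limma adjusted p = 0.0786), to *Mkl1*, a coactivator of SRF (0.34, limma adjusted p = 0.470), to *Nfatc1*, a partner of AP-1 on cytokine genes (-0.43, limma adjusted p = 0.292), and to *Cops5*, a COP9 signalosome subunit first known as a Jun-binding protein (-0.74, limma adjusted p = 0.230). *Cops5* measured 5.52, 4.42 and 5.30 FPKM in the deficient cells against 8.07, 11.4 and 8.29 FPKM in WT stage 2, without overlap. In WT stage 3 it measured 5.67, 4.61 and 4.94 FPKM, also below every WT stage 2 library and overlapping the deficient cells. The share of all genes lower than WT stage 2 without overlap was not counted. The closest relative *Fosl1* was at 0 in 8 libraries and at 0.14 FPKM in the first deficient library.

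Among the 14 other immediate-early genes, *Egr1*, a zinc finger factor induced through the ERK and Elk1 route, passed the fold and p thresholds (2.11% of all genes) and none passed the adjusted p (0.213%). It measured 15.7, 14.4 and 8.27 FPKM in *Med23*-deficient stage 2, 32.8, 27.0 and 24.9 FPKM in WT stage 2, and 15.4, 20.7 and 11.5 FPKM in WT stage 3. The deficient cells were lower than WT stage 2 without overlap (-1.12, 95% interval -1.72 to -0.52, limma adjusted p = 0.199), by 0.86 on the log2 scale without the third deficient library. Its relative *Egr2* differed by -0.80 (limma adjusted p = 0.478), and *Egr3* by -0.13 (limma adjusted p = 0.824). The list had 8 positive and 6 negative differences and a median of 0.04. *Jun*, *Junb*, *Fos* and *Fosb* differed by between -0.38 and 0.26 in the same fit, and whether *Egr1* differed from them was not tested.

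**Figure D4:**
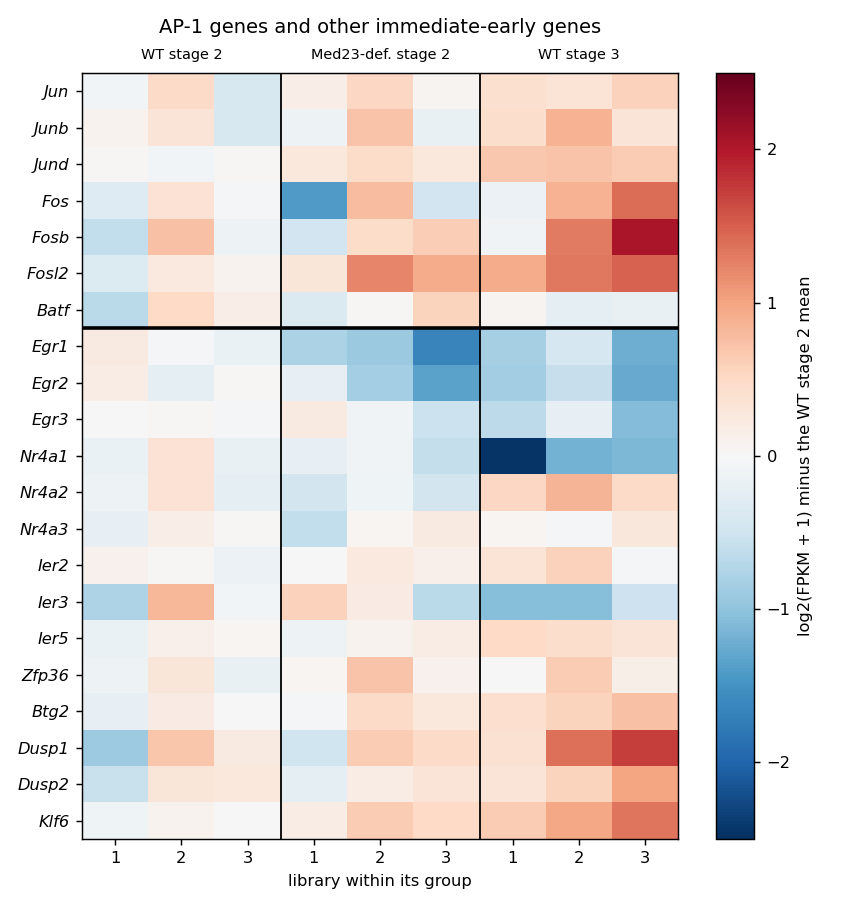
Each cell is log2(FPKM + 1) of a gene in 1 of the 9 libraries minus the mean of the 3 WT stage 2 libraries, with the AP-1 genes above the thick line and other immediate-early genes under it. *Egr1* is blue in all *Med23*-deficient libraries, *Jund* and *Fosl2* are red in all of them, and *Fos* is red in the second of them and blue in the others.

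Of the 12 tested genes that AP-1 is known to regulate, 2 passed the fold and p thresholds (2.11% of all genes) and were higher in *Med23*-deficient stage 2, none passed them as lower, and 1 of the 2 passed the adjusted p (0.213% of all genes). *Mmp9*, a matrix metalloproteinase, measured 5.84, 7.09 and 3.95 FPKM in the deficient cells, and each WT stage 2 library listed it at 0 (limma adjusted p = 0.0367), a call lost without any 1 of the 6 libraries (adjusted p 0.0761 to 0.136), with the same sum without the largest gene (0.0606) and in the Ballgown-style model (0.305). In WT stage 3 it was listed at 0, 0.15 and 0 FPKM. *Il2ra*, the interleukin 2 receptor alpha chain, measured 3.66, 3.40 and 6.57 FPKM against 0.95, 1.02 and 1.50 FPKM in WT stage 2 (1.33, limma adjusted p = 0.206), and 0.70, 0.84 and 0.42 FPKM in WT stage 3. The list had a median difference of 0.40, with 10 positive and 2 negative values.

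**Figure D5:**
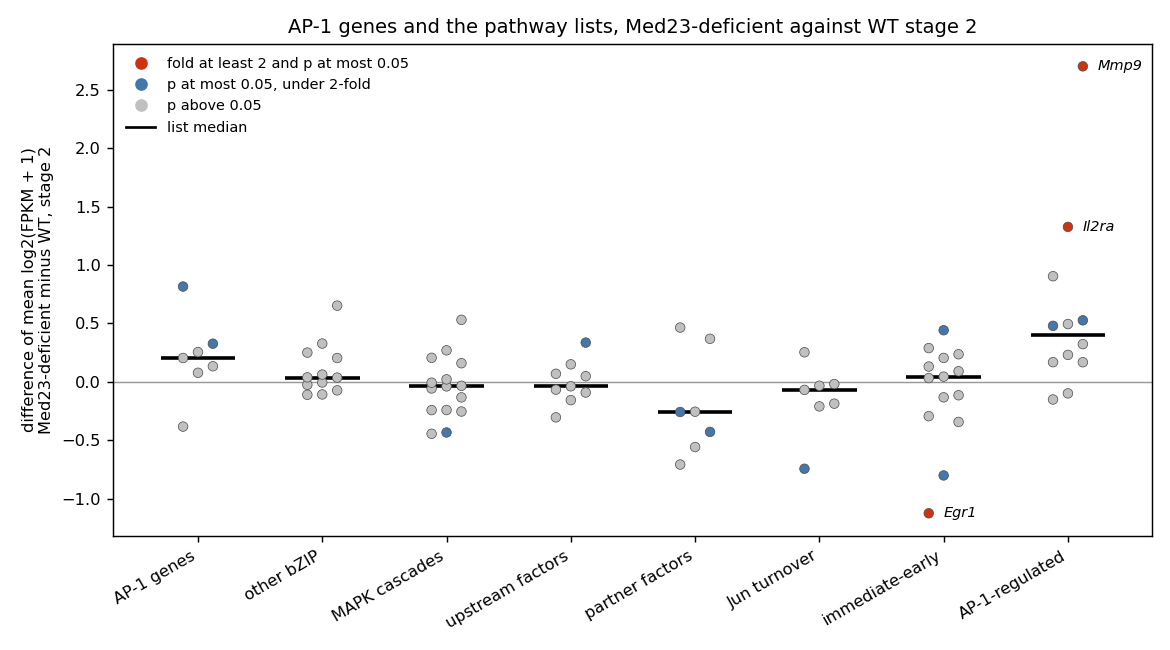
Difference of mean log2(FPKM + 1) between *Med23*-deficient and WT stage 2 (vertical axis) for each tested gene of the AP-1 family and the 7 lists around it, with list medians as bars. *Mmp9* and *Il2ra* at the top right and *Egr1* are the only points past the fold and p thresholds.

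Against WT stage 3, where 1.33% of all genes passed the adjusted p and 2.86% the fold and p thresholds, the deficient cells were higher in the type 2 cytokine genes *Il4* (2.17, limma adjusted p = 0.0182) and *Il13* (2.99, limma adjusted p = 0.00517) and in *Mmp9* (limma adjusted p = 0.0148), and lower in *Ifng*, the interferon gamma gene (-2.76, limma adjusted p = 0.0178). With 1 library left out, the call of *Il4* was lost for any deficient library and the third WT stage 3 library, that of *Mmp9* for the first deficient and any WT stage 3 library, and that of *Ifng* for the first or second deficient and any WT stage 3 library (adjusted p 0.0501 to 0.0804). In the Ballgown-style model these 3 calls were lost too (0.0751 to 0.250). Past the fold and p thresholds only were *Il2ra* (1.71, limma adjusted p = 0.0697), *Irf4* (1.85, limma adjusted p = 0.102), *Nr4a1* (1.29, limma adjusted p = 0.303), *Fasl* (-1.43, limma adjusted p = 0.161) and *Irf8* (-1.30, limma adjusted p = 0.129). *Irf4*, the partner of Batf, measured 6.68, 3.25 and 3.69 FPKM in the deficient cells, 7.04, 6.29 and 10.4 FPKM in WT stage 2 and 0.08, 1.01 and 0.52 FPKM in WT stage 3. *Irf8* was at 0.06, 0.16 and 0.81 FPKM in the deficient cells and at 1.81, 2.58 and 2.29 FPKM in WT stage 3. Between the WT stages, *Ifng* (2.93, limma adjusted p = 0.0343) and *Fasl* (1.93, limma adjusted p = 0.0399) rose and *Irf4* (-2.55, limma adjusted p = 0.0286), *Il13* (-2.75, limma adjusted p = 0.0404) and *Mapk10* (limma adjusted p = 0.0348, listed at 0 in all stage 3 libraries) fell. These 5 calls were each lost when any 1 of the WT stage 3 libraries was left out (adjusted p 0.0675 to 0.158) and in the Ballgown-style model (0.162 to 0.340), and over all alternatives in 9 of 17 for *Irf4*, 8 of 17 for *Il13* and *Fasl*, 7 of 17 for *Ifng* and 12 of 16 for *Mapk10*. *Cd69* (1.50, limma adjusted p = 0.135), *Il4* (-1.69, limma adjusted p = 0.0580) and *Nr4a1* (-1.59, limma adjusted p = 0.148) passed the fold and p thresholds only. Of the 12 other bZIP genes, the lowest unadjusted p against WT stage 3 was that of *Atf7* (-0.49, limma adjusted p = 0.458).

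The genes whose log2(FPKM + 1) followed a member most closely over the 9 libraries were sought among 9661 genes, as a description with no test, and r is high by selection. For *Jund* they were *Pigv* (Pearson r = 0.98), *Tceal3* (0.97) and *Ust* (0.97), and *Ust* had means of 1.68, 3.92 and 7.58 FPKM in WT stage 2, *Med23*-deficient stage 2 and WT stage 3. For *Fosl2* they were *Usp20* (0.97), *Atxn2l* (0.96) and *Zcchc18* (0.96), also with their middle mean in the deficient cells. *Fosb* was followed by *Dusp1* (0.95), *Pgm2l1* (0.95) and *Snora64* (0.94), and *Junb* by *Pim3* (0.93), *Zbtb22* (0.88) and *Sac3d1* (0.88). The nearest of *Jun* were *Pea15a* (0.93), *Crebrf* (0.92) and *Hps3* (0.91). *Fos* was nearest to *RP23-394G23.2* (0.90), *Snord66* (0.89) and *Mthfd1l* (0.89), and *Batf* to *Ifi213* (0.91), *Mink1* (0.91) and *Zfp109* (0.91). Within the family, the closest pairs were *Jund* with *Fosl2* (0.86) and *Fos* with *Fosb* (0.82).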

How the data were processed

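Per the labels and the methods of the study, total RNA of sorted thymic iNKT cells was sequenced from stranded small-input libraries. The authors trimmed reads with Trimmomatic 0.36, aligned them to mm10 with HISAT2, kept reads hitting at most 2 loci, and quantified GENCODE vM12 genes with StringTie. They deposited FPKM for 21883 genes with replicates apart. No read counts were used, so counting error cannot be given at an unknown depth.

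Differences of log2(FPKM + 1), pseudocount 1, were tested with limma 3.58.1 in R 4.3.3 (eBayes with trend) for each pair of groups, over genes that 1 or more of the 6 libraries listed above 0, with Benjamini-Hochberg adjustment over all genes tested. Folds are on that scale, which understates low genes. The code was tested on simulated data. Named genes were the 7 members, list genes past a threshold (or the lowest p of a list, 1 of which is not reported here), the 3 nearest genes of each member by Pearson r (mean FPKM of at least 1, no Gm or Rik symbols) and *Med23*. *Hspa1a*, *Hspa1b*, *Dnajb1*, *Hsph1*, *Dusp1*, *Egr2*, *Egr3*, *Fosl1* and the iNKT cell markers besides *Klrb1c* were named after their values were seen. The members and lists were chosen with earlier results of these data known. Alternatives were pseudocounts of 0.1 and 0.01, a mean FPKM of at least 1, 4 rescalings, limma without trend, a Ballgown-style model, all 9 libraries, the replicate block and leaving out each library. Permutation tests and figures used Python 3.11.15, scipy 1.17.1 and matplotlib 3.10.9.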

Additional observations from a re-analysis of the deposited data

How the results depend on the processing

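*Jund* and *Fosl2* stayed higher in *Med23*-deficient than in WT stage 2 cells under all 17 alternatives (log2 differences 0.20 to 0.43 and 0.62 to 1.08), with no adjusted p below 0.118 and 0.269, and *Jun* ran from 0.05 to 0.49. The count of members past the fold and p thresholds in this comparison was 0 to 1 with a library left out. Between the WT stages the count past the adjusted p was 2 with a pseudocount of 0.01 or a mean FPKM of at least 1, 0 on the TPM scale, with the same sum without the largest gene, in the Ballgown-style model and under the replicate block, and 0 throughout with a library left out, where the fold and p count ran from 1 to 3. Against WT stage 3 the fold and p count was 1 under the replicate block (*Fos*) and 0 to 1 with a library left out. What a shared replicate number stands for was not tested. The correlation of deviations ran from 0.0043 to 0.27 in the 9 same-number pairs of libraries and from -0.17 to 0.12 in the 18 other pairs. It was over 0.1 in 3 of the same-number pairs, those of libraries numbered 3 (0.14 to 0.27), and in 1 of the others. Under the replicate block the adjusted p of *Mmp9* rose to 0.221 between the stage 2 groups, and against WT stage 3 those of *Il4*, *Il13*, *Mmp9* and *Ifng* rose to between 0.0751 and 0.0986, above the threshold of 0.05. Differences that changed sign between the stage 2 groups were those of *Batf* (-0.045 on the TPM scale, and -0.25 to 0.33 with a library left out), *Junb* (-0.21 Ballgown-style, and -0.16 to 0.30), *Fos* (-0.95 to 0.14) and *Fosb* (-0.11 to 0.57). *Batf* also turned between the WT stages (0.56 Ballgown-style, and -0.45 to 0.13) and against WT stage 3 (-0.048 to 0.41). The cause of these changes was not tested. The median over genes whose mean FPKM reached 1 moved from -0.05 to -0.15 on the TPM scale in the first comparison. With 3 libraries per group and no counts, differences of the immediate-early members that lie inside their intervals are not excluded.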
